A study of Homo sapiens with 34 samples.

Results

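VCaP is a human prostate cancer line derived from a bone metastasis. The comparison described here sets VCaP cells given androgen in hormone-stripped serum against VCaP cells in ordinary control medium, both grown on a layer of amorphous calcium phosphate (ACP), the mineral that stood in for bone. The libraries were chosen by their labels alone, and 4 of the 34 in the series enter the comparison, 2 per medium. The control medium was DMEM and F12 basal media with fetal bovine serum. The androgen medium held serum stripped with charcoal-dextran, which takes out steroids, and androgen at a labelled 100 mM. Sample titles call the hormone DHT and treatment labels call it testosterone, so it is called androgen here. A pair of VCaP libraries in stripped medium without androgen on the same coating marks the level from which androgen worked. All cells were collected at day 4, and all 3 media came with penicillin and streptomycin. The control and androgen media differ in both serum and hormone, so androgen was tested here against whole serum and not against its own absence. VCaP is a single line, and the labels do not say that the 2 libraries of a medium came from separate cultures. The p-values therefore measure only the spread between libraries.

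Androgens act on prostate epithelium through a hormone-bound transcription factor that enters the nucleus and binds short DNA elements near its target genes. Textbook targets include the secreted kallikrein proteases, the membrane protease TMPRSS2, the chaperone FKBP5 and enzymes of lipid synthesis. In many prostate cancer lines androgen also sets the pace of the cell cycle, and removal of steroids from serum slows growth. In VCaP the ETS factor ERG is made from a fusion that places it behind the androgen-driven start of TMPRSS2.

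Total counts ran from 21.0 M to 23.7 M in the 6 VCaP libraries on ACP, and 17007 to 17453 genes had at least 1 read. Values are counts scaled to library size (CPM, counts per M). Pearson's r between the 2 libraries of a medium, across genes on the log2 scale, was 0.981 in control, 0.967 in stripped and 0.975 in androgen medium. Replicates lay more than 2-fold apart at 8.33% of genes in control, 13.5% in stripped and 11.5% in androgen medium. All 8 markers fixed for the line were present in every library, among them keratins KRT8 and KRT18, ERG and AMACR. Their level was not even across media. Summed, it was 2282 and 2888 CPM in control, 2984 and 3101 in stripped and 9901 and 5449 in androgen medium. TP63 and KRT6A, markers of basal cells, stayed under 1 CPM. Differences are log2 differences with their SE from a fit over all 9 VCaP libraries, and p-values are adjusted over all 15614 genes tested. The 9 include VCaP libraries grown on plastic without the coating, so the SEs and p-values also draw on the spread between those. A gene is called when the adjusted p is below 0.05.

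Androgen medium and control medium differed at 936 genes, 5.99% of those tested. Of these, 580 (3.71%) were higher with androgen and 356 (2.28%) were lower. The 2 androgen libraries lay wholly outside the 2 control libraries at all 936, and also at 8982 genes (57.5%) in all, so separation alone marked little. At an unadjusted p below 0.05 there were 3573 genes. A further measure asked which genes sat at the control level: 6770 genes (43.4%) were not called and had a 95% interval inside 2-fold of control. The count of calls leaned on every one of the 4 libraries. It was 105 without control replicate 1, 87 without control replicate 2, 172 without androgen replicate 1 and 259 without androgen replicate 2, where the remaining library of a medium is assumed to vary as the others do. It was 2276 with all 34 libraries in the fit, 1774 without a filter on low counts and 1663 with DESeq2. In bulk RNA, fewer cells of a type and less RNA per cell cannot be told apart.

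The genes with the largest rises were close to silent in control serum. PRR4, a proline-rich secreted protein, had no read in either control library and 34.8 and 50.5 CPM with androgen. Against a floor of 3 reads over the group, that was at least 634-fold higher (adjusted p = 7.59e-04). PRR4 lies in a cluster of related genes, where assignment of reads can be uncertain. SERPINA3, a secreted inhibitor of serine proteases, stood at 2.55 and 1.49 CPM in control, 1.48 and 3.89 in stripped and 108 and 279.5 in androgen medium. Its androgen libraries were far above all 4 others, by a log2 difference of 6.59 ± 0.63 from control (adjusted p = 0.00301). SLC5A1, the sodium-driven glucose carrier, was at 0.330 and 0.597 CPM in control and 50.5 and 34.3 with androgen (6.49 ± 0.62, adjusted p = 0.00202). PGC, the gastric protease precursor also secreted by prostate, went from 0.566 and 0.597 to 40.03 and 45.1 CPM (6.18 ± 0.63, adjusted p = 0.00301). KCNN3, a calcium-activated potassium channel, went from 0.0943 and 0.256 to 15.6 and 8.31 CPM (6.03 ± 0.61, adjusted p = 0.00202). Each of these 5 genes was under 4 CPM in both control and both stripped libraries. They kept the call in every alternative tried.

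PIGR and OLAH rose as well, but on less even libraries. PIGR, the carrier of antibodies across epithelium, was at 0.849 and 0.213 CPM in control and 9.57 and 51.8 with androgen (5.86 ± 0.92, adjusted p = 0.0121). OLAH, a thioesterase that releases medium-chain fatty acids, had 1 read in control against 387 with androgen, a ratio of 380 with a counting interval of 67.8 to 15039 (adjusted p = 0.00901). Both calls were lost without either control library, at adjusted p of 0.0674 and 0.126 for PIGR and 0.0817 and 0.0908 for OLAH. PIGR lost it without androgen replicate 2 too, at 0.0603.

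**Figure D1:**
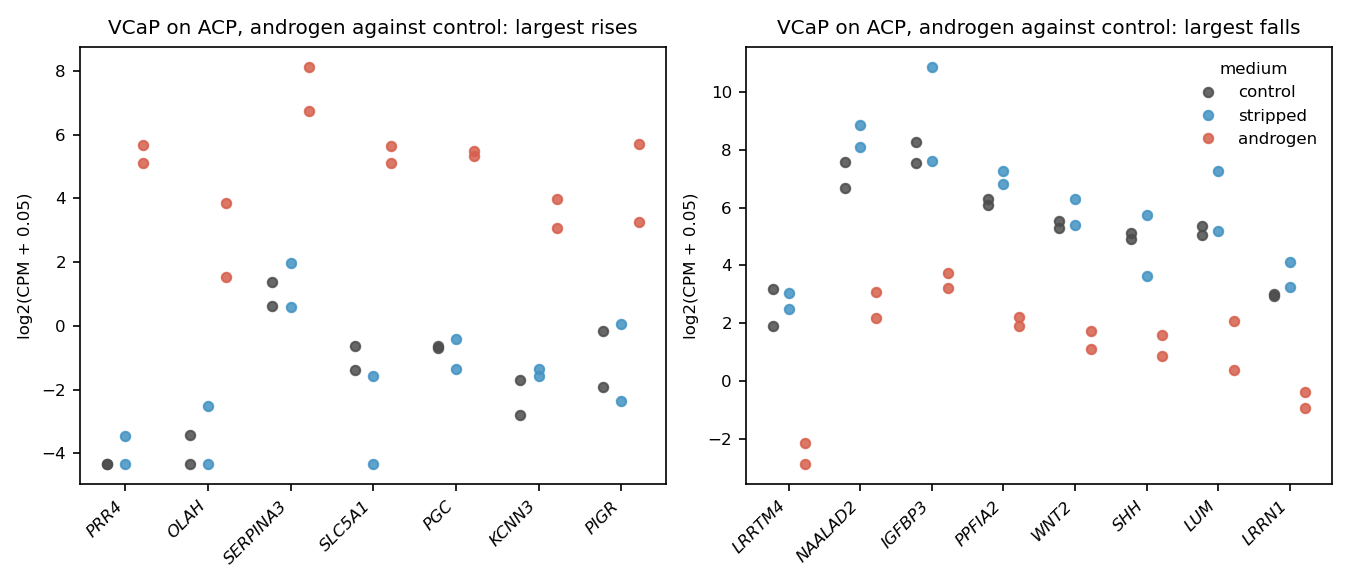
Levels of 7 of the 8 genes with the largest rise and the 8 with the largest fall between control and androgen medium, as log2(CPM + 0.05) in each of the 6 VCaP libraries on ACP. For the rises, both androgen libraries stand above all 4 others, and for the falls below all 4 others.

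Of the genes with the largest falls, NAALAD2, a peptidase of the cell surface, was at 193 and 103 CPM in control, 277 and 465 in stripped and 4.52 and 8.35 in androgen medium (-4.52 ± 0.52 against control, adjusted p = 0.00373). PPFIA2, a scaffold protein of synapses, followed the same order at 68.8 and 78.3 CPM in control, 112 and 156 in stripped and 4.57 and 3.73 in androgen medium (-4.15 ± 0.30, adjusted p = 7.59e-04). WNT2, a secreted growth signal, was at 39.1 and 46.5 CPM in control and 2.09 and 3.24 with androgen (-4.00 ± 0.32, adjusted p = 0.00110). LRRN1, a neuronal leucine-rich repeat protein, was at 7.73 and 8.06 CPM in control and 0.479 and 0.711 with androgen (-3.72 ± 0.44, adjusted p = 0.00347). These 4 genes kept the call in every alternative. LRRTM4, another leucine-rich repeat protein of synapses, went from 3.68 and 9.003 to 0.0870 and 0.178 CPM (-5.54 ± 0.88, adjusted p = 0.00497) and was not called without androgen replicate 1 (adjusted p = 0.0560).

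IGFBP3, SHH and LUM also fell, on calls that rested on each of the 4 libraries. IGFBP3, which binds insulin-like growth factors outside the cell, was at 309 and 189 CPM in control and 9.27 and 13.3 with androgen, and its stripped libraries lay far apart at 1886 and 196 (-4.46 ± 0.93, adjusted p = 0.0385). SHH, the hedgehog ligand, was at 35.2 and 30.5 CPM in control and 1.78 and 2.98 with androgen (-3.78 ± 0.82, adjusted p = 0.0357). LUM, a proteoglycan of collagen matrix and one of the fibroblast markers, was at 41.2 and 32.9 CPM in control and 1.26 and 4.18 with androgen (-3.77 ± 0.81, adjusted p = 0.0341). All 3 were lower in both androgen libraries than in any of the other 4 libraries. Leaving out any 1 of the 4 libraries ended all 3 calls, and adjusted p was highest without androgen replicate 1, at 0.193 for IGFBP3, 0.185 for SHH and 0.178 for LUM. Summed over the 6 fibroblast markers tested, levels were 44.7 and 36.3 CPM in control, 41.9 and 164 in stripped and 7.79 and 8.75 in androgen medium. Most of it was LUM in control and stripped medium. The collagens COL1A2 and COL3A1 stayed at or under 0.46 CPM. The 6 did not move together: LUM was the 1 called lower with androgen, while 3 had differences from control above 0, the largest 2.32, none of them called.

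Of 6 classical androgen targets, KLK3, FKBP5, TMPRSS2 and ERG rose above the level in control serum. KLK3, the prostate-specific antigen, was at 85.2 and 101 CPM in control, 36.4 and 121 in stripped and 3464 and 852 in androgen medium. Both androgen libraries were higher than the other 4, although they differed widely from each other (4.54 ± 0.63 against control, adjusted p = 0.0101). FKBP5, a chaperone of steroid receptors, was at 148 and 214 CPM in control, 63.1 and 122 in stripped and 1059.6 and 779 in androgen medium (2.34 ± 0.32, adjusted p = 0.00636). TMPRSS2 was at 238 and 249 CPM in control, 90.6 and 97.5 in stripped and 931 and 482 in androgen medium (1.54 ± 0.34, adjusted p = 0.0330). ERG, its fusion partner in this line, was at 219 and 264 CPM in control, 127 and 158 in stripped and 887 and 582 in androgen medium (1.60 ± 0.31, adjusted p = 0.0221). TMPRSS2 and ERG thus stood in the same order, lowest in stripped, middle in control and highest with androgen, with no overlap between media. KLK2, the kallikrein next to KLK3, was already at 3817 and 4110.3 CPM in control and reached 6685 and 5088 with androgen, a difference that was not called (0.57 ± 0.25, adjusted p = 0.203), although that from stripped medium was (0.91 ± 0.25, adjusted p = 0.0334). SLC45A3, a prostate transporter, was not called at 235 and 803 CPM in control and 1769 and 739.8 with androgen, where the media overlapped (adjusted p = 0.225). KLK2 and KLK3 are close relatives in sequence, so how reads were split between them is uncertain.

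Leaving out 1 library ended 4 of these calls. KLK3 was at adjusted p of 0.0901 without control replicate 1 and 0.107 without control replicate 2, and FKBP5 at 0.0729 without control replicate 1. TMPRSS2 was at 0.170 and 0.207 without control replicates 1 and 2 and at 0.187 without androgen replicate 1, where its log2 difference was 0.98. ERG was at 0.147, 0.141 and 0.124 without the same 3 libraries.

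Across the 37 tested genes of a list of androgen-induced genes, 16 were higher with androgen than in control and none was lower, against 3.71% and 2.28% of all genes. The median difference was 0.96, beside 0 over all genes, and 35 of the 37 were above 0. The count of 16 fell to 3 without control replicate 1, 4 without control replicate 2 and 6 without androgen replicate 1. The same 37 genes had a median of -0.24 for stripped against control, beside 0.08 over all genes, with 1 called lower. STEAP4, a metal reductase, was at 11.5 and 15.3 CPM in control, 3.84 and 7.23 in stripped and 835 and 433 in androgen medium (5.56 ± 0.93 against control, adjusted p = 0.0221), a call lost without control replicate 1, control replicate 2 or androgen replicate 1 (adjusted p = 0.146, 0.176 and 0.0908). SLC26A2, a sulfate carrier, was at 44.8 and 71.4 CPM in control, 47.4 and 78.7 in stripped and 1024 and 735 in androgen medium (3.92 ± 0.30, adjusted p = 0.00110) and kept its call throughout. AMACR, a racemase of branched-chain fatty acids used as a prostate cancer stain, was at 36.8 and 27.7 CPM in control, 18.2 and 25 in stripped and 909 and 499.9 in androgen medium (4.45 ± 0.29, adjusted p = 7.59e-04) and kept its call too. For SLC26A2 and AMACR, control and stripped libraries were of like height and both androgen libraries stood far above them.

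Of 12 tested genes on a list of androgen-repressed genes, 4 fell and 2 rose against control, beside 2.28% and 3.71% of all genes, with a median of -1.29. The median was -0.65 without control replicate 1 and -0.63 without androgen replicate 1, and in either of these fits none was called. FOLH1, the prostate-specific membrane antigen, was at 1453 and 864 CPM in control, 1862 and 1561 in stripped and 143 and 276 in androgen medium (-2.47 ± 0.39, adjusted p = 0.0121). DDC, which makes dopamine and serotonin, was at 91.2 and 45 CPM in control, 43.6 and 127 in stripped and 13.4 and 10.4 in androgen medium (-2.51 ± 0.49, adjusted p = 0.0236). CAMK2N1, an inhibitor of a calcium-dependent kinase, and the opioid receptor OPRK1 were the other falls. The 2 that rose, UGT2B10 and UGT2B28, belong to a family of enzymes that attach glucuronic acid to steroids, and are alike enough in sequence for reads to be shared. UGT2B10 was at 2.45 and 1.75 CPM in control and 12.1 and 14.2 with androgen (adjusted p = 0.0350). UGT2B28 had 3 reads in control against 51, a ratio of 16.7 with a counting interval of 5.40 to 83.6 (adjusted p = 0.0352). DDC, UGT2B10 and UGT2B28 lost their calls when any 1 of the 4 libraries was left out, at adjusted p of up to 0.131 for DDC without control replicate 1, and 0.255 for UGT2B10 and 0.212 for UGT2B28 without control replicate 2.

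**Figure D2:**
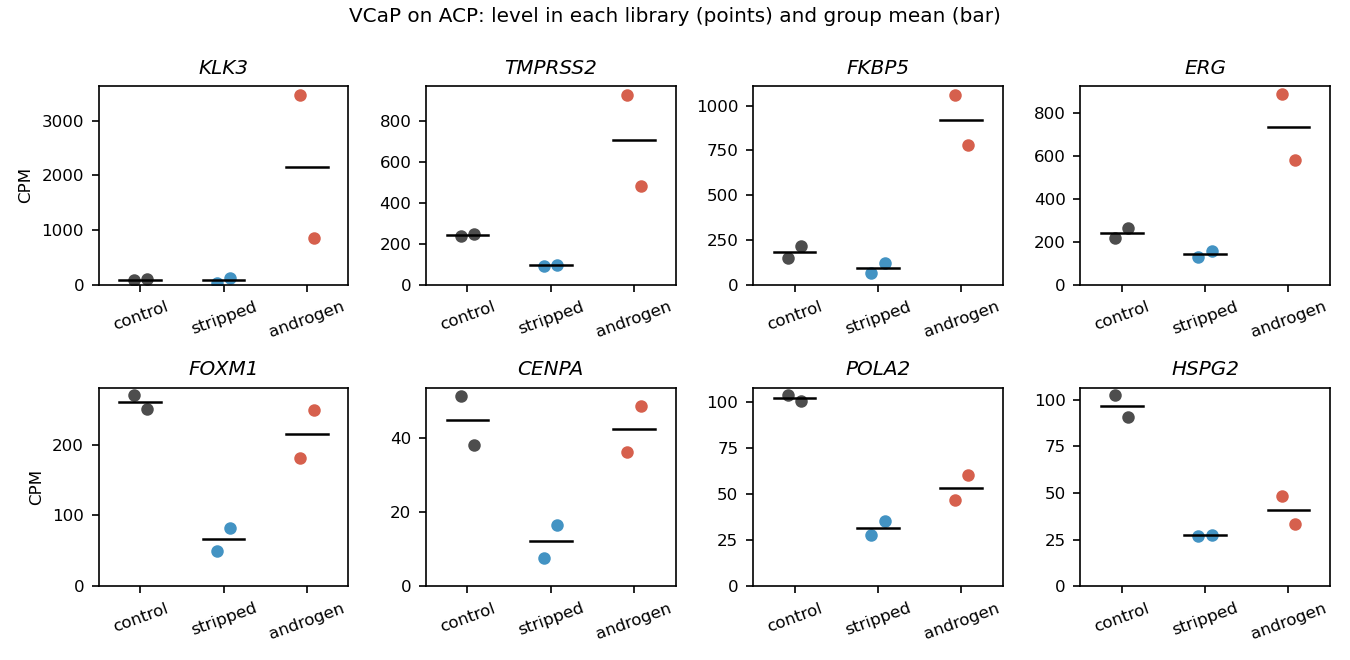
CPM of 8 genes in each of the 6 VCaP libraries on ACP, with a bar at the mean of each medium. KLK3, TMPRSS2, FKBP5 and ERG stand above control with androgen, FOXM1 and CENPA return near to control, and POLA2 and HSPG2 stop between stripped and control.

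The bases upstream of the start of 2 risen genes that carry the half-site AGAACA are shown, with the half-site in capitals. It is the short element that steroid receptors of this class bind. PRR4 and PIGR, which also rose, carry it on 1 strand too and are not shown. Sequences are from RefSeq on GRCh38.p14, from the strand of the gene, and end at the base before its start. KLK3 lies at chr19:50854665-50854914 on the plus strand and SERPINA3 at chr14:94612141-94612390 on the plus strand.

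KLK3: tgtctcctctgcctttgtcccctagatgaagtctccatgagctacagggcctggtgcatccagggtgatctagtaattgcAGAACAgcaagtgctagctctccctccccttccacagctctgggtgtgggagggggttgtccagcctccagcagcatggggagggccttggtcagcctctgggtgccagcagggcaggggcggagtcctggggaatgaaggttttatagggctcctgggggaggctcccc

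SERPINA3: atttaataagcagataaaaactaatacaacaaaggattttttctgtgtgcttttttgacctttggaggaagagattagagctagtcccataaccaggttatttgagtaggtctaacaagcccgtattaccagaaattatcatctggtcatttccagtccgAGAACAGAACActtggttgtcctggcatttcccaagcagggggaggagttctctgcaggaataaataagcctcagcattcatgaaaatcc

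The KLK3 match begins at -170, and SERPINA3 holds 2 matches that overlap by a base, at -90 and -85. Among promoters of the 433 genes called higher with androgen that matched the RefSeq table, 48 (11.1%) held AGAACA on either strand within 250 bases. The share was 7.05% of 241 genes called lower, 7.74% of 11427 genes tested and 12.4% of all 27305 promoters. The full palindromic androgen response element is a pair of half-sites in opposite directions. It was in 0.231% of the 433, 0.193% of genes tested and 0.33% of all promoters. Among the 63 named genes with a promoter in the table, 5 held the half-site, beside 7.74% of genes tested, and none the full one. A match is a description of letters and not of binding.

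The stripped libraries placed the control level in context. Stripped medium differed from control at 128 genes (0.82%), of which 107 (0.685%) were lower and 21 (0.134%) higher. Androgen medium differed from stripped at 2727 genes (17.5%), 1353 (8.67%) higher and 1374 (8.8%) lower. The 3 comparisons share libraries, so their counts are not independent. Of the 936 genes that separated androgen from control, 728 (77.8%) were also called between androgen and stripped, and 14 (1.5%) were called between stripped and control. Most genes that set androgen medium apart from control were therefore not called between stripped and control. The count of 128 rested on single libraries: it was 0 without control replicate 1, control replicate 2 or stripped replicate 1, with 1525, 1605 and 2087 genes at an unadjusted p below 0.05 in these 3 fits, and 309 without stripped replicate 2, 84 without androgen replicate 1 and 92 without androgen replicate 2. DESeq2 called 860 genes for the same contrast.

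The 128 genes were sorted by where androgen left them. Those within control level had an interval inside 2-fold of control and no call, those past control were called against it on the far side, and those left off were called on the near side. Androgen brought 43 (33.6%) to the control level, where 43.4% of all genes tested also sat, carried 7 past it and left 7 short of it, and 71 (55.5%) could not be placed at this precision. DESeq2, from its larger set of calls, placed 338 at control, 82 past it and 72 short of it, with 368 that could not be placed. With an interval inside 1.5-fold in place of 2-fold, 5 of the 128 were at control. Without control replicate 1, control replicate 2 or stripped replicate 1, no gene was left to sort. Just inside the 2-fold line lay LRRC26, with 65.1% of its gap to control on the log2 scale closed, and just outside it KIFC1, with 83.6%.

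**Figure D3:**
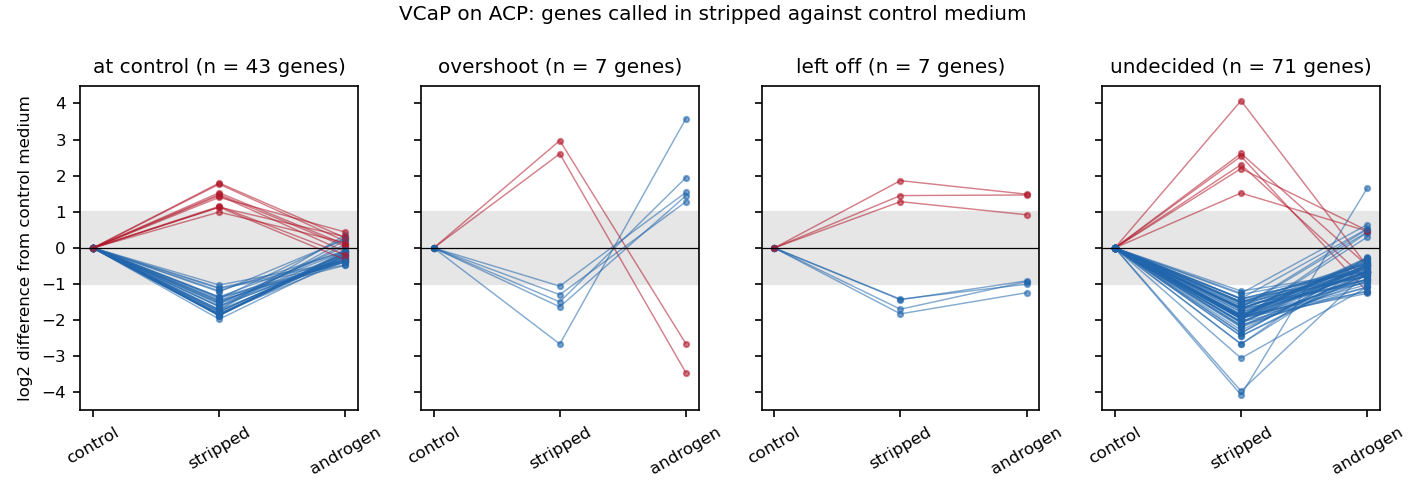
Log2 difference from control of the 128 genes called between stripped and control medium, at control, stripped and androgen medium, in 4 panels by where androgen left them, with the 2-fold zone in grey. Of the 128, 43 were at control, 7 cross past control, 7 stay on the stripped side and 71 could not be placed. Sorting used the interval and the call, not the plotted difference, so genes of other panels can also end in the grey zone. Among these are CDK6 at -0.25, which could not be placed, and POLA2 at -0.93, on the stripped side.

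The genes that androgen returned to the control level include regulators of cell division. FOXM1, a transcription factor of the late cell cycle, was at 270.2 and 251 CPM in control, 50.2 and 82.6 in stripped and 181 and 249 in androgen medium. It fell in stripped medium (-1.97 ± 0.31, adjusted p = 0.0345), and with androgen it differed from control by -0.28 ± 0.31 with an interval of -0.97 to 0.41, 85.9% of the gap closed. CENPA, the histone of centromeres, was at 51.6 and 38.3 CPM in control, 7.73 and 16.7 in stripped and 36.4 and 48.8 in androgen medium, and differed from control by -0.08 with an interval of -0.82 to 0.66. MDC1, a scaffold of the DNA damage response, was at 90.1 and 125 CPM in control, 22.9 and 35.7 in stripped and 103 and 96 in androgen medium, 94% of the gap closed. For all 3, both androgen libraries were above both stripped libraries. PGP, MELK and ARSI, the named genes at control among those that androgen moved from stripped, differed from control by 0.35 (interval -0.26 to 0.97), 0.09 (-0.73 to 0.91) and 0.06 (-0.79 to 0.91). The stripped calls of FOXM1, CENPA and MDC1 were lost without control replicate 1, control replicate 2 or stripped replicate 1, with adjusted p over all alternatives of up to 0.198, 0.247 and 0.210, and that of CENPA without either androgen library as well.

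The 7 genes past control went in both directions. NOV (CCN3), a secreted matrix-cell signal, was at 24.3 and 16.4 CPM in control, rose to 158 and 89.1 in stripped medium (2.61 ± 0.37, adjusted p = 0.0327) and was at 1.001 and 2.71 with androgen, below control (-3.45 ± 0.43, adjusted p = 0.00373). DMKN, a secreted epidermal protein, was at 1.18 and 0.811 CPM in control, 10.1 and 5.5 in stripped and 0.174 and 0.133 in androgen medium and also ended below control (-2.65 ± 0.68, adjusted p = 0.0393). C1orf87 went the other way, with 0.472 and 0.384 CPM in control, no read in stripped medium and 4.92 and 5.38 CPM with androgen (3.58 ± 0.52 against control, adjusted p = 0.00979). It was at least 6.32-fold lower in stripped than in control and at least 76.3-fold higher with androgen than in stripped, by a floor of 3 reads over the group. LIPG, an endothelial-type lipase, was at 21.4 and 18.6 CPM in control, 6.05 and 6.82 in stripped and 55 and 53.8 in androgen medium, and rose above control (adjusted p = 0.00690). FADS2, a desaturase of fatty acids, was at 82.8 and 67.2 CPM in control, 26.4 and 34.8 in stripped and 181 and 183 in androgen medium. TESC, a calcium-binding regulator of proton exchange, and HOMER2, a scaffold of synaptic receptors, were the remaining 2, above control by 1.95 (adjusted p = 0.00373) and 1.54 (adjusted p = 0.00373). In all 7 the stripped and androgen libraries lay on opposite sides of both control libraries. NOV kept its androgen call whichever library was left out. C1orf87 and DMKN lost it when any 1 of the 4 libraries was left out, at adjusted p of up to 0.122 for C1orf87 without control replicate 2 and 0.178 for DMKN without androgen replicate 2.

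Another 7 genes were left off the control level, and 4 of these were lower than control in both other media. POLA2, a subunit of the polymerase that starts DNA strands, was at 104 and 100.2 CPM in control, 27.8 and 35.1 in stripped and 46.8 and 60.1 in androgen medium. Androgen raised it from stripped (0.76 ± 0.23, adjusted p = 0.0482) and it was still below control (-0.93 ± 0.23, adjusted p = 0.0444), the 1 gene of the 2727 called short of control in both ways. LIG1, the ligase of replicating strands, and POLD1, the catalytic subunit of a replicative polymerase, had closed 36.4% and 29.2% of the gap. HSPG2, the basement membrane proteoglycan perlecan, was at 103 and 90.8 CPM in control, 27.1 and 27.5 in stripped and 48.4 and 33.6 in androgen medium (-1.24 ± 0.25 with androgen, adjusted p = 0.0236). The other 3 were higher than control in both, and 2 of them are described here. PLEKHA6, a junction protein, was at 7.31 and 8.06 CPM in control, 20.9 and 21.1 in stripped and 24.5 and 18 in androgen medium, and ARHGEF3, a guanine nucleotide exchange factor, at 25.5 and 26.7 CPM in control, 65.8 and 61 in stripped and 49.99 and 48.6 in androgen medium. For 6 of the 7, all but POLA2, androgen and stripped media were not called apart. The androgen calls of POLA2 and HSPG2 were lost when any 1 of the 4 libraries was left out, at adjusted p of up to 0.227 for POLA2 without androgen replicate 1 and 0.135 for HSPG2 without androgen replicate 2.

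Among the 71 genes that could not be placed, CDK6, a kinase of the G1 phase, was at 13.8 and 20.3 CPM in control, 3.89 and 1.53 in stripped and 11.8 and 16.8 in androgen medium, a difference from control of -0.25 with an interval of -1.28 to 0.77. GHRHR, the receptor for growth hormone-releasing hormone, was at 7.88 and 3.63 CPM in control, 0.541 and 0.827 in stripped and 2.74 and 2.67 in androgen medium, with an interval of -2.05 to -0.13. MYH13, a muscle myosin, was at 6.89 and 2.94 CPM in control, 0.148 and 0.413 in stripped and 12.1 and 18.7 in androgen medium, with an interval of 0.64 to 2.66. None of the 3 was called against control (adjusted p = 0.792, 0.169 and 0.0662), and all 3 intervals reached past 2-fold on 1 side, those of CDK6 and GHRHR below control and that of MYH13 above it. Read from the other side, of the 2727 genes that androgen moved from the stripped level, 727 (26.7%) ended past control, 536 (19.7%) at control, 1 short of it and 1463 (53.6%) could not be placed. CST2, a secreted protease inhibitor with close relatives in sequence, was among those past control at 9.29 and 3.8 CPM in control, 0.886 and 0.744 in stripped and 407 and 118 in androgen medium (5.33 ± 0.63, adjusted p = 0.00487, and 0.0670 without control replicate 2).

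Many DNA replication genes were lower in stripped medium and rose again with androgen. Of 29 tested, 15 were lower in stripped medium than in control (0.685% of all genes were). With androgen, 19 were higher than in stripped medium (8.67% of all genes) and 1 was lower than in control (2.28% of all genes). At the control level with androgen sat 2 of the 29, beside 43.4% of all genes. With 1 library left out, 0 to 17 were lower in stripped than in control, and none without control replicate 1, control replicate 2 or stripped replicate 1. The median difference from control was -1.89 in stripped and -0.58 in androgen medium, where it was -0.28 without androgen replicate 1, and 28 of the 29 were below 0 with androgen. POLA1, the catalytic partner of POLA2, was the 1 member called (POLA2, LIG1 and POLD1 are not on this list), at 46.6 and 50.8 CPM in control, 26.1 and 27.4 in stripped and 26.5 and 24.4 in androgen medium (-0.94 ± 0.21, adjusted p = 0.0324). Its call was lost when any 1 of the 4 libraries was left out (adjusted p up to 0.223, without control replicate 2). Androgen libraries of POLA1 were at the stripped level and below both control libraries.

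Mitosis genes also included genes lower in stripped medium, and most rose again with androgen. Of 24 tested, 5 were lower in stripped than in control (0.685% of all genes). With androgen, 18 were higher than in stripped medium (8.67% of all genes) and none was called against control (5.99% of all genes). At the control level with androgen sat 6 of the 24, beside 43.4% of all genes. With 1 library left out, 0 to 23 were lower in stripped than in control, none without control replicate 1, control replicate 2 or stripped replicate 1 and 23 without stripped replicate 2. Their median difference from control was -1.66 in stripped and -0.16 in androgen medium, and the latter was 0.09 without androgen replicate 1. CCNB1, the cyclin of mitotic entry, was at 289 and 249 CPM in control, 58 and 126 in stripped and 326 and 611 in androgen medium (0.80 ± 0.38 with androgen, adjusted p = 0.243). TOP2A, which untangles DNA, was at 774 and 884 CPM in control, 161 and 401 in stripped and 419 and 457 in androgen medium (-0.92 ± 0.36, adjusted p = 0.167, and 0.0493 without stripped replicate 2). Androgen libraries of CCNB1 were above both control libraries and those of TOP2A below both, and neither gene was called. Whether the replication and mitosis lists differ from each other was not tested.

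Upstream sequences of a gene returned to control and of a gene left off are shown for the short elements known from cell cycle promoters. In capitals are TTTGAA, the cell cycle homology region of mitotic genes, in CENPA, and TTTCGCGC, a site of E2F factors at replication genes, in POLA2. CENPA lies at chr2:26785806-26786055 on the plus strand and POLA2 at chr11:65261712-65261961 on the plus strand, both on GRCh38.p14 from RefSeq.

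CENPA: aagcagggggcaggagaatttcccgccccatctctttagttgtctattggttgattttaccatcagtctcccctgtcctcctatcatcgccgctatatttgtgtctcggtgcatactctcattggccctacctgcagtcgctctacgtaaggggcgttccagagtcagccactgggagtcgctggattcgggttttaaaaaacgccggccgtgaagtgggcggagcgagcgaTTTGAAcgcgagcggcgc

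POLA2: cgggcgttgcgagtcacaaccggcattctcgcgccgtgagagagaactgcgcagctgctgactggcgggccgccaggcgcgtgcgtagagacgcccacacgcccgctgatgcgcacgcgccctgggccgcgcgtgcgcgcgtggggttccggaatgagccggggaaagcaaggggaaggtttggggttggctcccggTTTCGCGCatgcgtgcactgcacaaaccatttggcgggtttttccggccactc

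The matches begin at -18 in CENPA and at -53 in POLA2. Searched on both strands over 250 bases, TTTGAA was in 23.2% of the 82 matched promoters of genes lower in stripped medium, 8.39% of genes tested and 13.6% of all promoters. It was in 10 of 24 (41.7%) where androgen returned the gene to control and in 8 of 54 (14.8%) where the gene was left off or could not be placed. TTTGGCGC and TTTCGCGC were each in 3 of those 54 (5.56%) and in none of the 24. They were in 0.84% and 0.709% of genes tested and in 0.553% and 0.469% of all promoters. The difference between the 2 sets was not tested.

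A few lipid genes rose above control with androgen, and more of them rose from the stripped level. Of 24 genes of cholesterol synthesis and uptake, 2 rose against control and 11 against stripped medium, beside 3.71% and 8.67% of all genes. The median difference from control was -0.46 in stripped and 0.28 in androgen medium, and the latter was 0.10 without control replicate 2 or androgen replicate 2. The 2 were IDI1, an isomerase of the sterol pathway, at 320.3 and 172 CPM in control, 203 and 193 in stripped and 552 and 609 in androgen medium (adjusted p = 0.0294), and INSIG1, the brake on sterol synthesis, at 418 and 259 CPM in control, 223 and 166 in stripped and 681 and 729 in androgen medium (adjusted p = 0.0417). Of 15 genes of fatty acid synthesis, 3 rose against control and 8 against stripped medium, beside the same shares of all genes, with medians of -0.68 in stripped and 0.42 in androgen medium. ACSL3, which activates fatty acids for lipid droplets, was at 409 and 433 CPM in control, 160.4 and 293 in stripped and 1861 and 1329.8 in androgen medium (1.92 ± 0.31, adjusted p = 0.0122). FADS2 (adjusted p = 0.0140) and ELOVL5, an elongase (0.91 ± 0.23, adjusted p = 0.0456), were the others. The calls of INSIG1, FADS2 and ELOVL5 were lost when any 1 of the 4 libraries was left out, and that of ELOVL5 without stripped replicate 2 too. Of these 4 omissions, IDI1 kept its call in 1, without control replicate 1, and ACSL3 in 1, without androgen replicate 2. Adjusted p over all alternatives reached 0.197 for IDI1, 0.299 for INSIG1, 0.118 for ACSL3, 0.148 for FADS2 and 0.281 for ELOVL5.

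Genes of the secretory pathway and of stress responses rose in small numbers. Of 27 genes of folding and secretion in the endoplasmic reticulum, 5 rose and none fell, beside 3.71% and 2.28% of all genes, with a median of 0.31. With 1 library left out, 0 to 5 rose. At the control level sat 18 of the 27, beside 43.4% of all genes. KDELR3, which returns escaped resident proteins, was at 4.48 and 2.35 CPM in control, 5.27 and 3.27 in stripped and 28.6 and 26.4 in androgen medium (3.01 ± 0.39, adjusted p = 0.00455, and 0.0636 without control replicate 2). Of 21 genes of amino acid supply and the ATF4 response, 3 rose and 1 fell, beside the same shares of all genes, with a median of 0.50. ATF3, a stress transcription factor that is also an immediate early gene, was at 2.97 and 1.28 CPM in control, 2.56 and 1.24 in stripped and 28.8 and 26.7 in androgen medium (3.71 ± 0.43, adjusted p = 0.00373) and kept its call throughout. DDIT3 and ATF5 rose by 1.06 and 1.07, and PHGDH, the first enzyme of serine synthesis, fell at 211 and 207 CPM in control and 90.3 and 113 with androgen (adjusted p = 0.0206). Among 18 genes on a list of immediate early and MAPK feedback genes 5 rose (3.71% of all genes did), 1 to 6 with 1 library left out, with a median of 1.16. Besides ATF3 these were ETV4 (3.47 ± 0.64, adjusted p = 0.0168), FOS (2.67 ± 0.63, adjusted p = 0.0419), JUNB and DUSP1. FOS was not called in the edgeR fit over all 34 libraries (adjusted p = 0.080). Among 17 genes of hypoxia and glycolysis 5 rose, 0 to 4 with 1 library left out, beside 3.71% of all genes, with a median of 0.49, among them ANKRD37 at 0.943 and 0.939 CPM in control, 2.07 and 1.32 in stripped and 12.6 and 4.8 in androgen medium and VEGFA, the vessel growth factor, at 26.5 and 30.9 CPM in control, 26.4 and 29.5 in stripped and 102 and 48.5 in androgen medium. Androgen replicate 1 was the higher of the pair for both. Without control replicate 1, control replicate 2 or androgen replicate 1 in turn, adjusted p was 0.100, 0.127 and 0.0891 for ANKRD37 and 0.176, 0.176 and 0.182 for VEGFA. DDIT3, ATF5, ETV4 and FOS lost their calls when any 1 of the 4 libraries was left out, DDIT3 without stripped replicate 1 too, at adjusted p over all alternatives of up to 0.240, 0.177, 0.127 and 0.277.

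Charcoal stripping removes other hormones as well, which the androgen medium did not put back. Their part in the values below was not tested. KLF9, a target of glucocorticoid and thyroid receptors, was at 17.3 and 11.9 CPM in control, 11.1 and 8.56 in stripped and 3.05 and 2.98 in androgen medium, and fell against control (-2.28 ± 0.29, adjusted p = 0.00440). ERRFI1, a feedback inhibitor of EGF receptors on the same glucocorticoid list, rose from 51.5 and 41.5 to 203 and 149 CPM (1.92 ± 0.21, adjusted p = 0.00301), and both calls held in every alternative. Over all genes 3.71% rose and 2.28% fell. In all, 3 of 14 glucocorticoid-responsive genes rose and 1 fell, with a median of 0.71. Of 14 targets of retinoid, vitamin D and thyroid receptors none rose and 2 fell, KLF9 and IGFBP3, with a median of -0.22 that was 0.11 without control replicate 1. Of 11 estrogen-induced genes 1 fell, IGFBP4, at 4.2 and 3.37 CPM in control and 1.04 and 1.02 with androgen (adjusted p = 0.0490), with a median of 0.12 that was -0.16 without control replicate 1 and -0.30 without androgen replicate 1. Among 8 steroid-making genes HSD3B1, at 0.377 and 0.0427 CPM in control and 2.22 and 3.6 with androgen, rose (adjusted p = 0.0350) and HSD17B6, at 24.6 and 29.4 CPM in control and 11.8 and 8.75 with androgen, fell (adjusted p = 0.0157). IGFBP4, HSD3B1 and HSD17B6 lost their calls when any 1 of the 4 libraries was left out, at adjusted p over all alternatives of up to 0.206, 0.227 and 0.146.

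Some neural genes fell below control with androgen. Of 14 tested, 2 fell against control and 7 against stripped medium, beside 2.28% and 8.8% of all genes. The median difference from control was 1.01 in stripped and -0.51 in androgen medium, and the latter was -0.22 without androgen replicate 2 and -0.80 without androgen replicate 1. NTS, the peptide neurotensin, was at 2.03 and 1.02 CPM in control, 11.9 and 7.44 in stripped and 0.0435 and 0.267 in androgen medium (-3.26 ± 0.82 against control, adjusted p = 0.0363). NLGN1, a synaptic adhesion protein, was at 1.65 and 3.33 CPM in control, 3.69 and 5.83 in stripped and 0.392 and 0.311 in androgen medium (-2.81 ± 0.61, adjusted p = 0.0280). Both were highest in stripped and lowest in androgen medium without overlap, and both calls were lost when any 1 of the 4 libraries was left out, at adjusted p over all alternatives of up to 0.178 and 0.208.

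**Figure D4:**
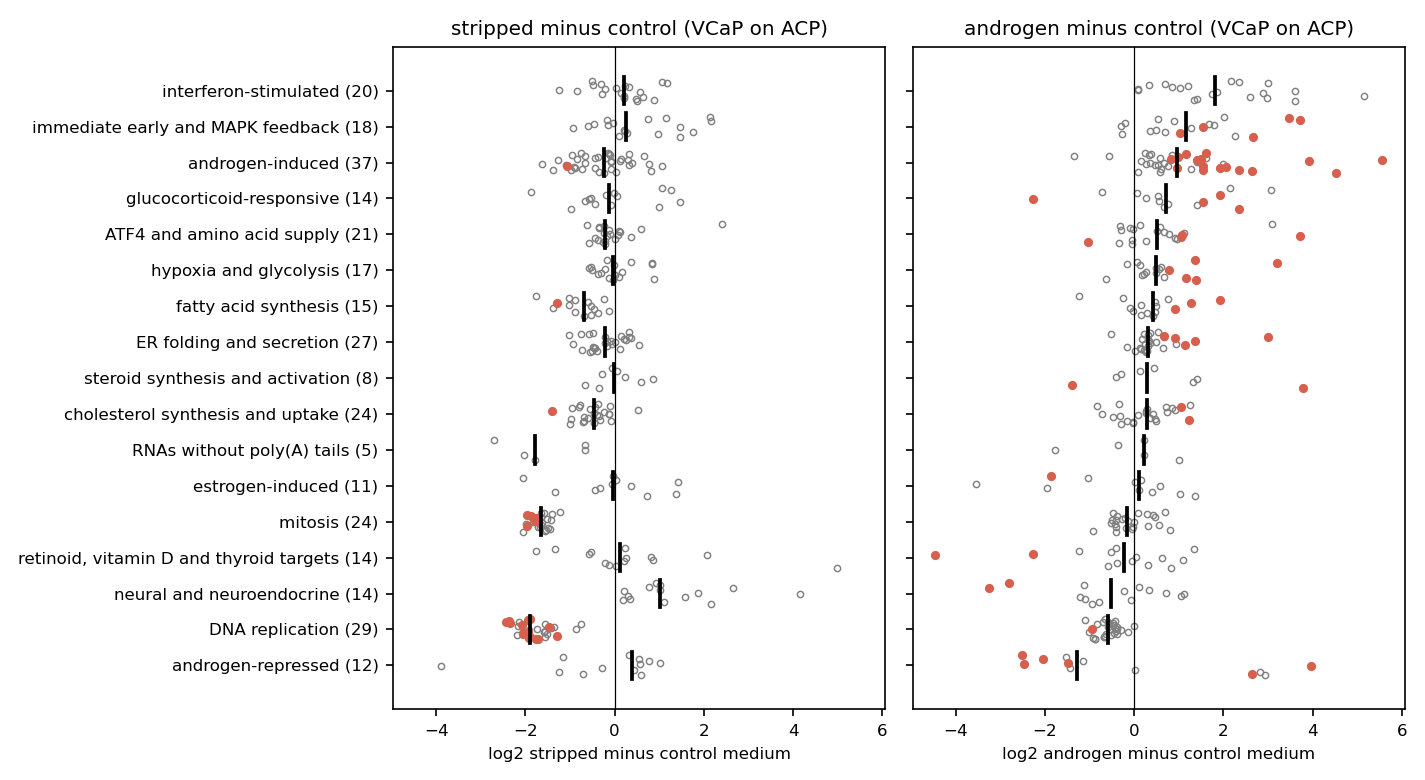
Log2 differences from control of the members of each gene list in stripped and in androgen medium, where each point is 1 gene, filled points were called and bars are list medians. DNA replication and mitosis genes have medians of -1.89 and -1.66 in stripped medium and -0.58 and -0.16 with androgen, while androgen-induced genes have a median of 0.96 with androgen.

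Several shifts sat in single libraries or in markers of other cells. The 20 interferon-stimulated genes had a median of 1.81 with none called (8 were called higher without androgen replicate 1, 2 with DESeq2) and 2 not overlapping, beside 57.5% of all genes not overlapping. Their summed level was 336 and 259 CPM in control, 259 and 218 in stripped and 211 and 935 in androgen medium, so androgen replicate 2 alone was high, and without it the median was -0.63. LYZ, a lysozyme on the leukocyte list that some epithelia also secrete, was at 4.81 and 2.56 CPM in control, 12.5 and 6.41 in stripped and 81.7 and 156 in androgen medium (5.01 ± 0.65, adjusted p = 0.00690, and 0.0574 and 0.0971 without control replicates 1 and 2). The defining leukocyte markers PTPRC, CD3E and AIF1 had at most 1 read and were not tested. Summed basal markers were 42 and 39.8 CPM in control and 70.2 and 104 with androgen, and summed liver markers were 20.2 and 23.9 and 20.9 and 37.9, with FGG and FGA at 0. RPPH1, an RNA without a poly(A) tail that poly(A) selection should remove, was at 32.4 and 89.8 CPM in control, 17.4 and 18.2 in stripped and 143 and 104 in androgen medium (1.02 ± 0.38 against control, adjusted p = 0.150, and 0.0413 without control replicate 2). Summed over 5 such RNAs the level was 46.4 and 139 CPM in control, 24.4 and 29.1 in stripped and 184 and 134 in androgen medium, lowest in the medium in which replication genes were lowest. The part of these markers in the results was not tested.

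LNCaP is a line from a lymph node metastasis that the study uses as a model of early adenocarcinoma. Androgen medium was compared with control medium on ACP there too. Each line had its own control medium and these media differ, so line and medium cannot be told apart in the values below. The comparison in LNCaP differed from that in VCaP at 860 of 17323 genes (4.96%), 378 (2.18%) with a higher and 482 (2.78%) with a lower difference in VCaP. In this fit over all 34 libraries, LNCaP itself had 1594 genes (9.2%) called between the media, 892 (5.15%) higher and 702 (4.05%) lower with androgen. VCaP had 2276 in the same fit, 1255 higher and 1021 lower. The 936 genes given for VCaP above come from the fit over 9 libraries and are not the matching count. KLK3 was already at 2142 and 3242 CPM in LNCaP in control medium and 3249 and 3552 with androgen, so the 2 lines differed by 4.18 ± 0.72 (adjusted p = 0.00185). SERPINA3 differed by 7.43 ± 0.84 (adjusted p = 3.02e-05), with 1.29 and 3.07 CPM in control and 1.42 and 0.979 with androgen in LNCaP. CLDN1, a claudin of tight junctions, was at 2.72 and 2.2 CPM in control and 20.3 and 30.6 with androgen in VCaP, where it rose, and at 0.250 and 2.04 in control and 0.104 and 0.0979 with androgen in LNCaP, where it fell (difference 6.81 ± 1.06, adjusted p = 1.71e-04). BASP1, a membrane protein of growing axons, was the reverse, at 13.8 and 7.64 CPM in control and 2.08 and 6.7 with androgen in VCaP, where it was not called, and at 0.894 and 4.67 in control and 91.2 and 119 with androgen in LNCaP, where it rose (difference -6.52 ± 0.82, adjusted p = 8.97e-05). AMACR rose in both lines, by 4.43 in VCaP and 1.55 in LNCaP, and more in VCaP (difference 2.88 ± 0.38, adjusted p = 9.16e-05). CENPA was at 21 and 14.9 CPM in control and 1.62 and 4.64 with androgen in LNCaP (-2.51, adjusted p = 0.00230), whereas VCaP had returned to control (difference 2.42 ± 0.66, adjusted p = 0.0335). That CENPA difference was not called without control replicate 1, control replicate 2 or androgen replicate 2 of VCaP, and its adjusted p reached 0.141 over the alternatives. In VCaP itself, the CLDN1 rise was not called without control replicate 1 (adjusted p = 0.0533) or control replicate 2 (0.0781).

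**Figure D5:**
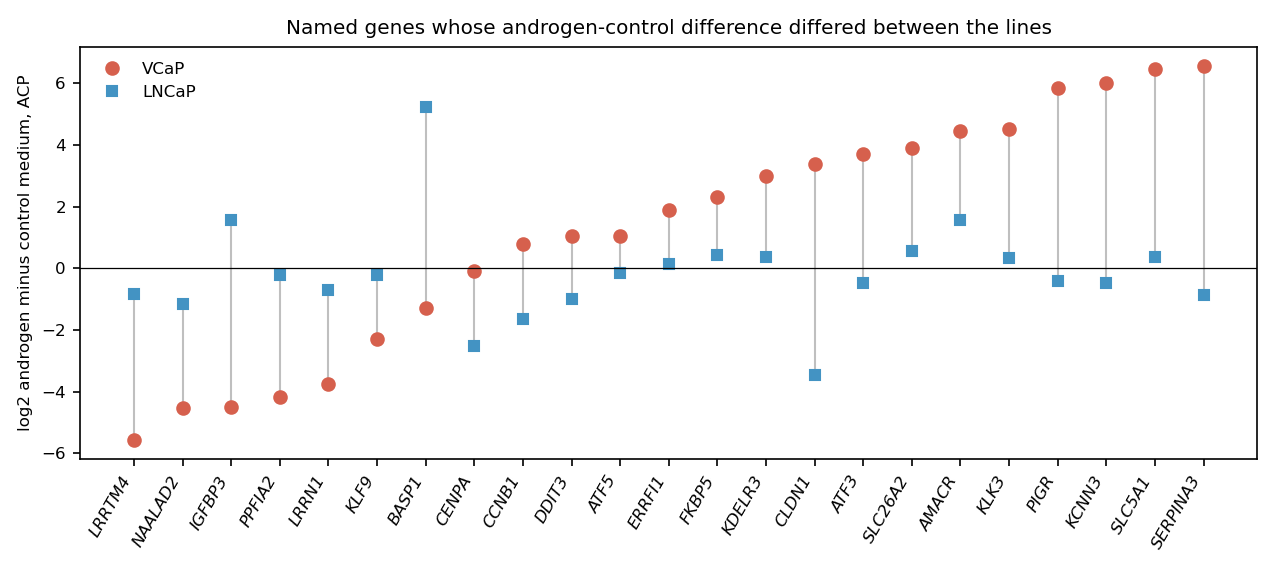
Log2 difference between androgen and control medium on ACP in VCaP and in LNCaP, for 23 named genes whose difference between lines was called, leaving out 2 with no read in androgen medium in VCaP. A grey line joins the 2 lines of cells at each gene, and its length is the difference between them, 4.18 for KLK3 and 6.81 for CLDN1. Each line is set against its own control medium, and these media differ.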

How the data were processed

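The values are whole-number read counts per gene symbol that the authors deposited as 1 table of 26336 genes by 34 libraries, not normalized and not pooled. RNA was column-purified and poly(A)-selected before a service provider made the libraries, per the labels' protocols. Mapping with STAR, counting with HTSeq and the hg19 build are named in the submitters' processing notes. Neither annotation nor strand setting is given in the sources used here, so reads of overlapping or antisense genes cannot be told apart, and close copies can share reads. Columns were matched to samples by their names in the labels. The members and gene lists were chosen with earlier results of these data known.

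From the counts, edgeR 4.0.16 in R 4.3.3 gave TMM-scaled CPM and quasi-likelihood tests over 9 VCaP libraries in 5 groups, with 4 residual degrees of freedom, about 10.1 after sharing across genes. Genes passing filterByExpr with a minimum count of 10 were tested (15614), and p-values were adjusted by Benjamini-Hochberg, with calls below 0.05. SEs and 95% intervals are Wald values from the same fit. A gene sat at the control level when it was not called and its interval lay within 1 log2 unit. The comparison with LNCaP is an interaction term over all 34 libraries (17323 genes). Groups with no reads were set to a floor of 3 counts over the group. Intervals of read ratios are exact at 95% and cover counting error only. Promoters were searched in RefSeq's GRCh38.p14 table.

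On simulated counts for androgen against control, 78.9% of 194 genes changed by 2 log2 units were called (15161 genes) and 12.7% of 197 changed by 1 (15148 genes). The true difference lay inside the interval in 95.2% to 95.5% of genes, and 7 of the 197 genes changed by 1 were placed at control. Total counts of 21.0 M to 23.7 M per library set the counting error, which is not small for genes with few reads, and the common biological coefficient of variation was 24.9%. Chi-square per gene between replicates, 24.8 to 56.9, was far over 1, so no pair was a single library under 2 names.

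The named genes are the 8 largest rises and falls among called genes reaching 5 CPM with no overlap between media, the leading genes of each position class, 6 fixed androgen targets, the leading called genes of each list (or 2 members where none was called) and the 3 largest differences between lines in each direction. The other members of classes of 7, and FOLH1, CAMK2N1, OPRK1, PHGDH, JUNB and DUSP1, were named after their values were seen. A few genes that the rule names are not reported here. Alternatives were DESeq2 1.42.0, its size factors, no filter, a replicate block, fits over 6 or 34 libraries and a 1.5-fold margin. Each of the 6 VCaP libraries on ACP was also left out in turn, and no other library was. limma 3.58.1 served only as part of edgeR.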

Additional observations from a re-analysis of the deposited data

Results flagged for a closer look

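For 25 named genes, the difference between androgen and control medium on ACP differed between VCaP and LNCaP by an interaction test (edgeR, adjusted p below 0.05). Values are VCaP minus LNCaP on the log2 scale. Both lines were compared against their own control medium, and these media differ.

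The difference was higher in VCaP for SERPINA3 by 7.43, CLDN1 by 6.81, KCNN3 by 6.51, PIGR by 6.27 and SLC5A1 by 6.10. It was higher too for KLK3 by 4.18, SLC26A2 by 3.33, AMACR by 2.88, FKBP5 by 1.88 and ERRFI1 by 1.78. The same direction held for ATF3 by 4.16, KDELR3 by 2.62, DDIT3 by 2.03 and ATF5 by 1.21. CENPA and CCNB1 differed by 2.42 and 2.41.

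Values were lower in VCaP than in LNCaP for BASP1 (-6.52), IGFBP3 (-6.05), LRRTM4 (-4.72), PPFIA2 (-3.94), NAALAD2 (-3.37), LRRN1 (-3.03) and KLF9 (-2.07). DNAJC15 (-7.31) and FOXN4 (-6.17) had no read with androgen in VCaP, so these fitted values depend on a small added count and are not bounds. Each had 40 reads in control, which by a floor of 3 reads makes them at least 13.6-fold lower with androgen in VCaP. In stripped medium DNAJC15 had 33 reads but FOXN4 had 3, so FOXN4 was already low without androgen. Its ratio of control to stripped was 13.3, with a counting interval of 4.23 to 67.2.

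Leaving out single VCaP libraries ended 4 of the 25 calls. LRRN1 was lost without androgen replicate 1 (adjusted p over all alternatives up to 0.0681). CENPA was lost without control replicate 1, control replicate 2 or androgen replicate 2 (up to 0.141), and CCNB1 without control replicate 2 or androgen replicate 2 (up to 0.0932). FOXN4 was lost without control replicate 1 or either androgen library (up to 0.153). CENPA, CCNB1 and FOXN4 were also not called when the fit held only the ACP libraries of both lines. No LNCaP library was left out, so how far these differences rest on single LNCaP libraries was not tested.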

How the results depend on the processing

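No direction reversed among the 62 called genes chosen by the naming rule, and 15 of them kept the call in every alternative. The other 47 lost it without at least 1 library, and 8 lost it under another setting too. FOLH1, CAMK2N1, OPRK1, PHGDH, JUNB, DUSP1, LIPG, TESC, HOMER2, LIG1, POLD1, PLEKHA6 and ARHGEF3 were not followed gene by gene through the alternatives. Calls between androgen and control numbered 1774 without a filter on low counts (897 higher, 877 lower), 1663 with DESeq2 (923 and 740) and 2276 with all 34 libraries (1255 and 1021). With 1 library left out they ran from 87 to 1008 (39 to 631 higher, 48 to 392 lower). Stripped against control gave 927 calls without a filter, 860 with DESeq2, 311 with only the 6 VCaP ACP libraries and 1057 with all 34, and 0 to 309 with 1 library left out. Androgen against stripped gave 4543 with all 34 libraries and 766 to 2318 with 1 left out.

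Of the genes called in stripped against control, androgen carried past control 105 without a filter, 82 with DESeq2, 26 with 6 libraries, 88 with 34 and 0 to 19 with 1 library left out. It left off 97, 72, 32, 116 and 0 to 15 in the same order, brought to control 351, 338, 113, 454 and 0 to 140, and left unplaced 374, 368, 140, 399 and 0 to 135. A 1.5-fold margin put 5 at control and left 109 unplaced. Of the genes called in androgen against stripped, 1320 were past control without a filter, 1234 with DESeq2, 1703 with 34 libraries and 85 to 686 with 1 left out. Short of control were 15 without a filter, 10 with DESeq2, 9 with 6 libraries, 7 with 34 and 0 to 2 with 1 left out. At control were 1350 with 34 libraries, 50 with the 1.5-fold margin and 32 to 566 with 1 left out, and 315 to 1758 were unplaced with 1 left out. Differences between lines numbered 1550 with DESeq2, 508 with only the ACP libraries of both lines and 376 to 1006 with 1 VCaP library left out. The cause of these shifts was not tested, beyond the fewer or more libraries and genes in each fit.

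Whether replicate numbers pair the libraries cannot be settled from a single pair per medium. Same-numbered deviations correlated at 0.21 (control and stripped), -0.30 (control and androgen) and -0.15 (stripped and androgen). With a replicate block, androgen against control gave 804 calls, stripped against control 340 and androgen against stripped 2630. In the block the stripped calls had 14 past control, 15 left off, 149 at control and 162 unplaced, and 2 genes were short of control in androgen against stripped. A crossed pairing, chosen after seeing the data, gave 1022, 142 and 3017 calls.

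With 2 libraries a medium, 12.7% of simulated 2-fold differences were called, so the lack of a call does not show that a gene did not differ.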
